A study of Mus musculus with 59 samples.

Results

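The genes of cholesterol synthesis and their regulation by SREBP2 were followed across all RNA-seq samples of a study of hydroxycitrate (HC), a plant-derived inhibitor of ATP citrate lyase (ACLY). The 27 members were chosen by symbol among the 24972 genes of the tables, and all 27 were present in each of the 4 tables. They fall into early mevalonate enzymes (Acat2, Hmgcs1, Mvk, Pmvk and Mvd), isoprenoid enzymes (Idi1, Fdps and Ggps1), the squalene branch (Fdft1, Sqle and Lss), late sterol enzymes (Cyp51, Tm7sf2, Lbr, Msmo1, Nsdhl, Hsd17b7, Ebp, Sc5d and Dhcr7), regulators (Srebf2, Scap, Insig1 and Insig2), a sterol carrier (Stard4) and the dolichol-making enzyme pair (Dhdds and Nus1).

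ACLY splits cytosolic citrate and so provides the acetyl-CoA from which sterols and fatty acids are built. Hepatocytes are a main site of cholesterol synthesis, and mevalonate also feeds the making of dolichol, ubiquinone and prenyl anchors of proteins. When sterols in the endoplasmic reticulum are low, SCAP escorts SREBP2 to the Golgi, where it is cut and released as a transcription factor for the genes of this pathway, whereas the INSIG proteins hold SCAP back when sterols are plentiful.

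The study held 59 libraries in 17 groups. AML12 cells, a line of hepatocytes from mouse liver, were given siRNA against Acly (siAcly) or a control siRNA (siC), and under each siRNA 3 libraries were made from each of the cells that had HC at 1 mM, SB-204990 (SB) at 10 µM or bempedoic acid (Bemp) at 30 µM for 16 h, and 3 from untreated (Ut) cells. All 3 compounds are inhibitors of ACLY. Liver and soleus came from male C57BL/6 mice of 41 weeks on a standard diet, 5 that had received HC at 7.5 g/kg of diet for 21 weeks and 5 Ut mice. By the methods of the paper, mice of that age were killed after 16 h of fasting. Gastrocnemius, a fast hind limb muscle, came from male C57BL/6 mice of about 6 months. It was taken after injection of 10 µM cardiotoxin with HC in the diet (CTXHC) or without it (CTX), each at 2 and 30 days post-injury (DPI). Uninjured controls (C) stood beside these, with 3 libraries in each group. By the methods of the paper, HC at 7.5 g/kg of standard diet began only after the injection. Nothing in the labels tells if the 3 AML12 libraries of a group were separate cultures, so p-values in those cells measure the spread between libraries, which may be technical.

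All values are gene counts that the authors had normalized by the median of ratios within each of the 4 tables, written here as normalized values, and tests were run only within a table. Log2 fold changes are differences in log2(value + 1) fitted with limma over all groups of a table, with p-values adjusted over all genes tested, and a gene was called at an adjusted p of 0.05. The estimated depth was 7.31 to 16.3 M reads for AML12 cells, 7.69 to 13.1 M for liver, 8.93 to 11.2 M for soleus and 16.0 to 34.9 M for gastrocnemius. Genes under a value of 10 in too many libraries were not tested, so that 12296 genes were tested for AML12 cells, 11497 for liver, 12067 for soleus and 14033 for gastrocnemius. All 27 members were tested in AML12 cells, liver and gastrocnemius, and 26 in soleus, where Sqle had values of 4.21 to 9.95. In AML12 cells Acly, the target of the siRNA, averaged 368.2 ± 103.0 in 12 siAcly libraries and 2924 ± 884 in 12 siC libraries (SD, permutation test with 100000 resamples, two-sided, p = 1.0e-05, the smallest such a test can give). For Acly, the library labelled siC Bemp 11 stood at 404.4, within the siAcly range of 215.3 to 598.5, and without it the siC libraries held 2575.7 to 3859.6. The library labelled siC Ut 13 had 917 of Cyp1a1, a gene that stood at 678 to 1255 in the other 5 Bemp libraries, 236 in the library labelled siC Bemp 11 and at most 495 elsewhere. Its Acly value was 3263, so both libraries went against their labels in part. They were kept as labelled, whether their labels were exchanged was not tested, and every siC Bemp and siC Ut value below includes them unless stated. The library siAcly Ut 15 correlated with no other library above 0.12 once group differences in siRNA were taken out. All 8 hepatocyte markers listed (Alb, Ttr, Apoa1, Apob, Trf, Serpina1a, Tat and Cps1) passed the limit on low values in AML12 cells and in liver. Alb, Ttr, Apoa1, Apob, Trf and Serpina1a passed it in soleus too, so passing does not by itself mark the cell type.

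In promoters, SREBP2 binds sterol regulatory elements, often next to a CCAAT box bound by the factor NF-Y. Windows of 300 bases around the gene start (250 before and 50 after) were on hand in RefSeq (GRCm38.p6) for 23 of the 27 members. A sterol element written as TCACNCCAC, searched on both strands, occurred in 1 of those 23, Hmgcs1, and in 1.44% of 27025 genes with a window. CCAAT, which on the opposite strand reads as ATTGG, occurred in 21 of 23 and in 41.1% of genes. A match is a match of letters and not a measured site. The 6 stretches below, each 50 bases on the strand of the gene, belong to members whose AML12 values, or for Nsdhl fitted changes, are described further on. Capitals mark the motif, which in Hmgcs1 begins 137 bases before the gene start and did not overlap a CCAAT box.
Hmgcs1 (chr13:119690193-119690242, plus strand): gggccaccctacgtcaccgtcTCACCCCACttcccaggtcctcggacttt
Idi1 (chr13:8885571-8885620, plus strand): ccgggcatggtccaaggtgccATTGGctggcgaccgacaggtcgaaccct
Lss (chr10:76531522-76531571, plus strand): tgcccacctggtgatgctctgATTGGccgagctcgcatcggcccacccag
Cyp51 (chr5:4104698-4104747, minus strand): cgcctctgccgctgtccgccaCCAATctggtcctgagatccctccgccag
Msmo1 (chr8:64733605-64733654, minus strand): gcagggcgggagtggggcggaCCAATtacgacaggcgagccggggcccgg
Nsdhl (chrX:72918480-72918529, plus strand): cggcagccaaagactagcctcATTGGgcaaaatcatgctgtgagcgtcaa

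Knockdown of Acly went with higher values of enzymes on the whole route to cholesterol in some AML12 libraries and not in others. In the values below, the 3 libraries of a group are given in the order of their numbers, which are 19, 20 and 86 for siAcly HC, 16, 17 and 85 for siAcly SB, 22, 23 and 87 for siAcly Bemp and 14, 15 and 84 for siAcly Ut. For siC they are 7, 8 and 82 (HC), 4, 5 and 81 (SB), 10, 11 and 83 (Bemp) and 1, 2 and 13 (Ut).

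Hmgcs1 encodes the cytosolic synthase that condenses acetyl-CoA units into HMG-CoA. In siAcly cells it was 572, 1876 and 859 under HC, 778, 2024 and 899 under SB, 484, 1166 and 779 under Bemp and 1249, 349 and 698 in Ut cells. In siC cells it was 591, 557 and 571 under HC, 564, 619 and 570 under SB, 496, 753 and 459 under Bemp and 525.5, 460 and 511 in Ut cells. The siAcly libraries 14, 17, 20 and 23 (1166 to 2024) stood highest, 16, 85, 86 and 87 (778 to 899) were also above every siC library, and siAcly Ut 15 was below every one of them. The other early enzymes are Acat2, which joins a pair of acetyl-CoA molecules, the kinases Mvk and Pmvk, and the decarboxylase Mvd. Mvd was 203, 658 and 200 (HC), 173, 676 and 184 (SB), 230, 402 and 191 (Bemp) and 490, 124 and 206 (Ut) in siAcly cells, against 185, 363 and 340 (HC), 267, 409 and 290 (SB), 249, 158 and 259 (Bemp) and 233, 376 and 348 (Ut) in siC cells. For Mvd the siC libraries themselves ran from 158 to 409, so that the siAcly libraries 17, 20 and 14 stood above them and 23 did not.

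Idi1, the isomerase that makes the starting allyl unit for chain growth, was 757, 2129 and 579 (HC), 884, 1937 and 649 (SB), 573, 1268 and 592 (Bemp) and 1421, 179 and 519 (Ut) in siAcly cells. In siC cells it was 779, 645 and 436 (HC), 849, 661 and 371 (SB), 663, 912 and 432 (Bemp) and 825, 486 and 544 (Ut). Its lowest value by far was again in siAcly Ut 15. Fdps, the farnesyl diphosphate synthase, was 1303, 4863 and 1616 (HC), 1126, 4844 and 1558 (SB), 1271, 2925 and 1616 (Bemp) and 4138, 718 and 1950 (Ut) in siAcly cells. In siC cells Fdps was 916, 1454 and 1827 (HC), 1223, 1870 and 1822 (SB), 909, 984 and 1558 (Bemp) and 893, 1601 and 1149 (Ut). Ggps1, which makes geranylgeranyl diphosphate away from the sterol route, kept to 119 to 181 in the 12 siAcly libraries and 125 to 211 in the 12 siC libraries.

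Fdft1, squalene synthase and the first enzyme committed to sterols, was 715, 2199 and 894 (HC), 671, 2371 and 850 (SB), 769, 1460 and 736 (Bemp) and 1755, 531 and 952 (Ut) in siAcly cells. In siC cells its values were 566, 847 and 910 (HC), 761, 965 and 852 (SB), 560, 630 and 744 (Bemp) and 628, 879 and 715 (Ut). Sqle, squalene epoxidase, was 733, 1969 and 875 (HC), 894, 2493 and 793 (SB), 686, 1442 and 787 (Bemp) and 2063, 245 and 780 (Ut) in siAcly cells. In siC cells Sqle lay between 655 and 1180 in all 12 libraries. Lss, the cyclase that forms lanosterol, was 308, 1338 and 430 (HC), 353, 1799 and 364 (SB), 297, 830 and 374 (Bemp) and 912, 224 and 376 (Ut) in siAcly cells, and 274 to 461 in the 12 siC libraries. For each of these 3 genes the siAcly libraries 14, 17, 20 and 23 were the highest of all 24.

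Cyp51, the lanosterol demethylase, was 617, 2304 and 756 (HC), 563, 2462 and 760 (SB), 538, 1332 and 630 (Bemp) and 1632, 197 and 822 (Ut) in siAcly cells. In siC cells it was 464, 517 and 643 (HC), 544, 646 and 593 (SB), 414, 555 and 523 (Bemp) and 459, 442 and 393 (Ut). Msmo1, the sterol methyl oxidase that acts together with Nsdhl and Hsd17b7, was 683, 1662 and 837 (HC), 705, 1758 and 883 (SB), 704, 1081 and 676 (Bemp) and 1362, 669 and 846 (Ut) in siAcly cells. Against this stood 580, 576 and 610 (HC), 742, 629 and 651 (SB), 645, 725 and 670 (Bemp) and 634, 488 and 481 (Ut) in siC cells. For Msmo1, siAcly Ut 15 lay within the siC range, whereas for Cyp51 it was below all 12 siC libraries. Hsd17b7, a keto reductase of the same step, was 162, 225 and 326 (HC), 249, 342 and 326 (SB), 137, 214 and 271 (Bemp) and 210, 87.1 and 302 (Ut) in siAcly cells. In siC cells Hsd17b7 was 230, 106.7 and 277 (HC), 217, 182 and 269 (SB), 206, 240 and 274 (Bemp) and 215, 142 and 117 (Ut), which overlaps the siAcly values. Dhcr7, the reductase of the last step, was highest in siAcly SB 17 (1552) and lowest in siAcly Ut 15 (380), with 536 to 1062 in siC cells. Tm7sf2, a sterol reductase, was 302, 797 and 196 (HC), 274, 745 and 223 (SB), 379, 624.98 and 278 (Bemp) and 724, 336 and 301 (Ut) in siAcly cells, and 292, 527 and 342 (HC), 363, 559 and 311 (SB), 368, 309 and 344 (Bemp) and 362, 511 and 450 (Ut) in siC cells.

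Of the regulators, Insig1, itself a target of SREBP2, had 215, 660 and 374 (HC), 275, 828 and 272 (SB), 226, 447 and 297 (Bemp) and 580, 95.1 and 288 (Ut) in siAcly cells. In siC cells Insig1 was 192, 200 and 258 (HC), 252, 235 and 263 (SB), 211, 253 and 185 (Bemp) and 178, 211 and 160 (Ut). Insig1 thus followed the enzymes, with the siAcly libraries 14, 17, 20 and 23 on top. Insig2, the second INSIG, was 511, 474 and 400 (HC), 595, 430 and 339 (SB), 559, 487 and 389 (Bemp) and 526.5, 622 and 336 (Ut) in siAcly cells, against 527, 511 and 274 (HC), 586, 423 and 293 (SB), 554, 658 and 303 (Bemp) and 564, 464 and 515 (Ut) in siC cells. Its values did not separate the siRNAs. Srebf2, which encodes SREBP2, was 2593, 4693 and 4357 (HC), 3224, 6430 and 4183 (SB), 2439, 4675 and 4272 (Bemp) and 4890, 2222 and 4252 (Ut) in siAcly cells, and 2862 to 5130 in the 12 siC libraries. Scap was between 1484 and 2328 in siAcly cells and between 1240 and 2116 in siC cells. Stard4, a soluble carrier of sterols between membranes, was 571, 911 and 681 (HC), 800, 1060 and 573 (SB), 480, 781 and 594 (Bemp) and 858, 201 and 604 (Ut) in siAcly cells, and 558 to 757 in siC cells. Dhdds and Nus1, the subunits of the enzyme that extends farnesyl diphosphate towards dolichol, lay at 398 to 632 and 701 to 1238 in siAcly cells, and at 465 to 722 and 678 to 1170 in siC cells.

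**Figure D1:**
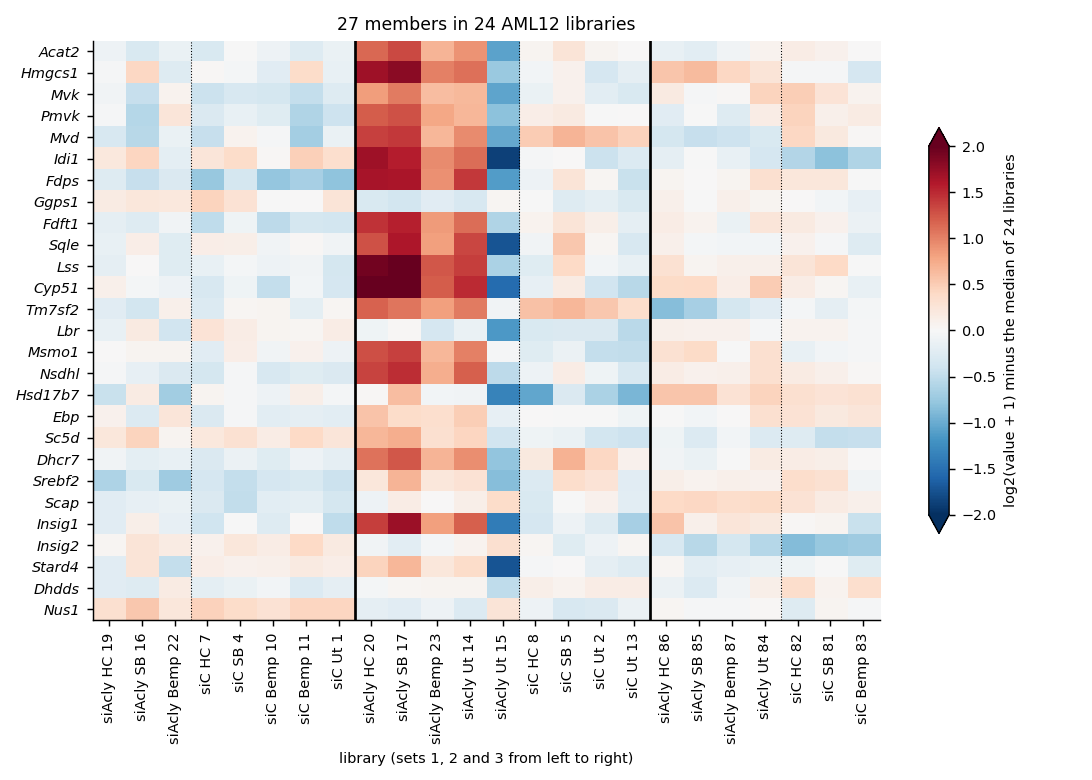
Colour gives log2(value + 1) of each of the 27 members (down the page) in each of the 24 AML12 libraries (across), less the median of the 24, on a scale of −2 to 2. Thick lines part 3 sets of libraries and dotted lines part siAcly from siC; the siAcly libraries 14, 20, 17 and 23 of set 2 are the highest of all for Hmgcs1, Idi1, Fdps, Fdft1, Sqle, Lss, Cyp51 and Msmo1 but not for Ggps1, with Cyp51 at 2462 in siAcly SB 17 and 197 in siAcly Ut 15.

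Taken over all 24 libraries and the 4 treatments, 20 of the 27 members had a higher mean in siAcly than in siC cells, with a median log2 change of 0.22 and of about 0 over all tested genes. One member passed the test: Msmo1 rose by 0.60 (SE 0.16, limma adjusted p = 0.0353), where 4.77% of all genes were called. At an unadjusted p under 0.05 there were 6 members, all higher in siAcly cells, where 22.4% of all genes passed that limit: Cyp51 (log2 0.73, SE 0.30), Hmgcs1 (0.65, SE 0.22), Insig1 (0.62, SE 0.25), Msmo1, Nsdhl (0.48) and Scap (0.25). The late sterol genes had a median of 0.18, the early mevalonate genes 0.26, the isoprenoid genes 0.37, the squalene branch 0.47 and the regulators 0.15, while Stard4 was at −0.06 and the dolichol pair at −0.08. The share of members over the limit was close to that of all genes. With 1 library left out at a time, 4 members were called without siAcly Ut 15, and 0 without any one of siAcly 17, 20, 22, 23 or 85 or siC 2, 5, 7, 8, 10 or 13. The share of all genes called in these refits was not kept, so these counts cannot be set against it.

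Within single treatments no member was called, and the medians below rested on single libraries. In Ut cells, 16 of 27 members were higher in siAcly than in siC cells (median log2 0.10, but 0.51 without siAcly Ut 15, −0.13 without siAcly Ut 14 and about 0 without the library labelled siC Ut 13), 0.187% of all genes were called by limma, and Msmo1 (0.79, SE 0.32) and Scap (0.45) were the 2 members at an unadjusted p under 0.05, against 19% of genes. Fdps (0.61, SE 0.58) and Cyp51 (0.58, SE 0.60) had the next largest changes. Under HC, 23 members were higher in siAcly cells (median 0.30, and 0.078 without siAcly HC 20) with Cyp51 at 0.93 (SE 0.60), Insig1 at 0.80 and Hmgcs1 at 0.76, and Msmo1 (0.74) was the 1 member at an unadjusted p under 0.05. There 0.00813% of all genes were called and 5.33% had an unadjusted p under 0.05. Under SB, 22 were higher (median 0.21, and −0.12 without siAcly SB 17), with Idi1 at 0.80 and Cyp51 at 0.78 (SE 0.60 each), and Hmgcs1 (0.94, SE 0.43) was the 1 member at that unadjusted limit, with 0% of genes called and 3.04% at the unadjusted limit. Under Bemp, 22 were higher (median 0.25, and 0.023 without siAcly Bemp 23), led by Fdps (0.70, SE 0.58), Cyp51 (0.63) and Fdft1 (0.55), with 0 members at the unadjusted limit, 0% of genes called and 3.94% at an unadjusted p under 0.05.

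The inhibitors themselves gave no called member. In siC cells limma called 0 members for HC, SB or Bemp against Ut, 0 members had an unadjusted p under 0.05, and the median log2 changes were 0.13 (HC, 0.017 without siC HC 82), 0.19 (SB) and 0.05 (Bemp). Of all genes, 0% were called for each inhibitor, and 0.342% (HC), 0.569% (SB) and 1.95% (Bemp) had an unadjusted p under 0.05. Some members nonetheless did not overlap with Ut, all of them higher with the inhibitor: Hmgcs1 and Cyp51 under HC (2 members, against 2.51% of all genes), Hmgcs1, Lss, Cyp51, Nsdhl and Insig1 under SB (5 members, against 5.86%) and Msmo1 under Bemp (1 member, against 9.08%). These 3 comparisons share the siC Ut libraries, of which 1 is the library labelled 13. The largest differences were Cyp51 at 0.32 (SE 0.60), Hsd17b7 at 0.31 and Insig2 at −0.29 under HC, Hsd17b7 at 0.52 (SE 0.40), Cyp51 at 0.46 and Insig1 at 0.46 under SB, and Hsd17b7 at 0.64 (SE 0.40), Mvd at −0.52 (SE 0.53) and Tm7sf2 at −0.36 under Bemp. In siAcly cells, 0 members were called for any inhibitor, and the median log2 changes against siAcly Ut were 0.31 for HC, 0.24 for SB and 0.16 for Bemp. All 3 medians turned below 0 without siAcly Ut 15 (−0.14 for HC, −0.07 for SB and −0.30 for Bemp), and so did those without siAcly HC 20 (−0.08), siAcly SB 17 (−0.15) and siAcly Bemp 23 (−0.06), each for its own inhibitor. Idi1 led in each, at 0.94 for HC, 1.02 for SB and 0.57 for Bemp, with an SE of 0.60. Next were Cyp51 (0.67) and Stard4 (0.59) for HC, Hsd17b7 (0.77) and Hmgcs1 (0.74) for SB, and Stard4 (0.36) and Sqle (0.33) for Bemp. At an unadjusted p under 0.05 stood 0 members for HC, 2 for SB (Stard4 at 0.74, SE 0.35, and Lbr at 0.53) and 0 for Bemp, where 2.2%, 13.4% and 2.55% of all genes did, and 0% of genes were called. Lbr encodes a nuclear membrane protein that also acts as a sterol reductase. These comparisons share the siAcly Ut libraries. Of these, library 15 held the lowest values of Idi1, Cyp51, Stard4 and Sqle, but not of Tm7sf2 or Insig2. Without library 15 the log2 change of Idi1 under Bemp was −0.19 and that of Cyp51 under HC −0.18.

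The siRNA by inhibitor terms asked whether an inhibitor acted differently on these genes once Acly was depleted. By limma 0 members were called for HC, SB or Bemp and 0 had an unadjusted p under 0.05, where 0% of all genes were called and 0.512%, 8.44% and 1.35% passed the unadjusted limit. The median terms were 0.15 (22 of 27 above 0) for HC, 0.10 (17 of 27) for SB and 0.08 (18 of 27) for Bemp on the log2 scale. Without siAcly Ut 15 they were −0.25 for HC, −0.26 for SB and −0.27 for Bemp, and without the set 2 library of the inhibitor itself −0.12 (HC 20), −0.34 (SB 17) and −0.05 (Bemp 23), so their sign rested on single libraries. Idi1 had the largest term for SB (1.04, SE 0.84) and for HC (0.94, SE 0.84), and Mvd for Bemp (0.69, SE 0.75). Stard4 stood at 0.62 (SE 0.49) for SB and 0.48 (SE 0.49) for HC, Mvd at 0.50 for HC, Hmgcs1 at 0.51 for SB, and Msmo1 at −0.55 (SE 0.45) and Idi1 at 0.48 for Bemp. All of these terms were within 1.5 times their standard errors, so an interaction of that size was not detectable in these libraries.

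The spread behind these errors followed a grouping of the libraries that runs with the numbers in their titles. Clustering of all tested genes other than the members and Acly, after centring within each siRNA, gave 3 sets of libraries, chosen after the data were seen. Set 1 held 8 libraries (siAcly 16, 19 and 22 and siC 1, 4, 7, 10 and 11), set 2 held 9 (siAcly 14, 15, 17, 20 and 23 and siC 2, 5, 8 and 13) and set 3 held 7 (4 siAcly, 3 siC), the last being the libraries numbered 81 to 87. The summed level of the 8 hepatocyte markers was 95190 to 118469 in set 1, 41502 to 66423 in set 2 and 29398 to 39806 in set 3. Each set held both siRNAs, and siAcly and siC were compared within each set in 1 fit. Set 1 held no siAcly Ut, set 2 no siC Bemp and set 3 no siC Ut library, so treatments are not balanced within the sets as labelled. Apart from 11, 13 and 15, the numbers of set 1 run in steps of 3 from 1, those of set 2 are each 1 higher, and no set holds a group more than once. What the numbers stand for is not given in the sources used here. The library labelled siC Bemp 11 (Acly 404.4) fell in set 1 and that labelled siC Ut 13 (Cyp1a1 917) in set 2, so the gaps named above rest on the labels of these 2 libraries. With the set as a term in the fit over all 24 libraries, added after the data were seen, limma called 3 members higher in siAcly cells, Hmgcs1 (0.59, SE 0.20), Msmo1 (0.57, SE 0.14) and Scap (0.19, SE 0.06), where 23.2% of all genes were called.

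Within sets, members were called in set 2 and in no other. In set 2, 8 of the 27 members were called, all higher in siAcly cells: Cyp51 by a log2 of 1.26 (SE 0.41), Lss by 1.25 (SE 0.31), Msmo1 by 1.19 (SE 0.17), Hmgcs1 by 1.08 (SE 0.27), Insig1 by 1.05 (SE 0.35), Nsdhl by 0.94 (SE 0.24), Fdft1 by 0.81 (SE 0.26) and Sc5d by 0.59 (SE 0.14), with limma adjusted p-values of 0.00019 (Msmo1) to 0.048 (Insig1). Of all genes in that set, 14% were called. The median of the members was 0.52 and that of all tested genes −0.01. In sets 1 and 3 limma called 0 members, with 0 and 3 members at an unadjusted p under 0.05, medians of −0.02 and 0.09, and 3.47% and 3.38% of all genes called. The difference between sets was tested too. For set 2 minus set 1, 1 member was called (Msmo1, 1.19, SE 0.25, limma adjusted p = 0.035) with 0.407% of all genes. For set 2 minus set 3 limma called 0 members and 0.0407% of all genes. There 5 members had an unadjusted p under 0.05, against 17.2% of all genes. In set 2 the count was 5 without any one of siAcly 14, 17, 20, 23 or 87 or siC 2, 5, 10 or 13, and 4 without siC HC 8. For set 2 minus set 1 it was 0 without any one of siAcly 14, 17, 19, 20, 22 or 86 or siC 1, 2, 5, 7, 8, 10, 11, 13 or 81. The share of all genes called was not kept for these refits either.

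These counts rested on siAcly Ut 15. That library fell in set 2 when 3 clusters were made and stood alone with 4, and the summed level of 10 cell cycle genes was 8318 in it and 15219 to 34367 in the other 23. It also held the lowest value of any AML12 library for Idi1, Sqle, Cyp51 and Insig1. More calls of members higher in siAcly cells of set 2 were therefore to be expected without it. The counts and fold changes without it, also those of set 2 minus the other sets, are no separate support for a change of the members. Without it, limma called 20 of the 27 members higher in siAcly than in siC cells in set 2, with 13.9% of all genes called. Cyp51 rose 3.84-fold (log2 1.94, SE 0.14), Lss 3.31-fold (1.73, SE 0.15), Insig1 3.04-fold (1.61, SE 0.15), Hmgcs1 2.83-fold (1.5, SE 0.13), Idi1 2.83-fold (1.5, SE 0.13), Fdps 2.79-fold (1.48, SE 0.14) and Msmo1 2.66-fold (1.41, SE 0.11). Nsdhl (1.31), Sqle (1.23), Fdft1 (1.20), Acat2 (0.94), Mvk (0.94), Pmvk (0.89), Hsd17b7 (0.86), Sc5d (0.77), Dhcr7 (0.66), Mvd (0.57), Stard4 (0.56), Tm7sf2 (0.50) and Ebp (0.48) rose as well. All 5 early mevalonate enzymes, all 3 of the squalene branch and 8 of the 9 late sterol enzymes were thus called, while of the 4 regulators 1 was. The 7 members not called were Srebf2 (0.34, SE 0.12), Lbr (0.24), Scap (0.15), Nus1 (0.01), Insig2 (−0.01), Dhdds (−0.09) and Ggps1 (−0.10). The range of the isoprenoid genes was wide, since Idi1 and Fdps rose and Ggps1 did not pass the test.

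Without that library the other sets held fewer calls. In set 1 limma called 2 members, both lower in siAcly cells, Lbr (−0.29, SE 0.09) and Stard4 (−0.31, SE 0.11), with a median of −0.03 and 17.6% of all genes called. In set 3 it called 3 higher, Hmgcs1 (0.66, SE 0.14), Idi1 (0.55, SE 0.14) and Insig2 (0.33, SE 0.10), and 3 lower, Mvd (−0.59, SE 0.17), Tm7sf2 (−0.45, SE 0.14) and Dhdds (−0.36, SE 0.10), with a median of 0.05 and 10.9% of all genes. The effect of siAcly was higher in set 2 than in set 1 for 16 members, against 2.09% of all genes called in that test, with Lss at 1.79 (SE 0.21), Cyp51 at 1.78 (SE 0.19) and Idi1 at 1.71 (SE 0.19). It was higher in set 2 than in set 3 for 17 members, against 1.71% of all genes called, with Lss at 1.75 (SE 0.22), Cyp51 at 1.56 (SE 0.20) and Fdps at 1.52 (SE 0.21). Leaving out the libraries labelled siC Bemp 11 and siC Ut 13 as well gave 19 members in set 2 (11.4% of all genes), 14 for set 2 minus set 1 (1.36%) and 15 for set 2 minus set 3 (0.898%).

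**Figure D2:**
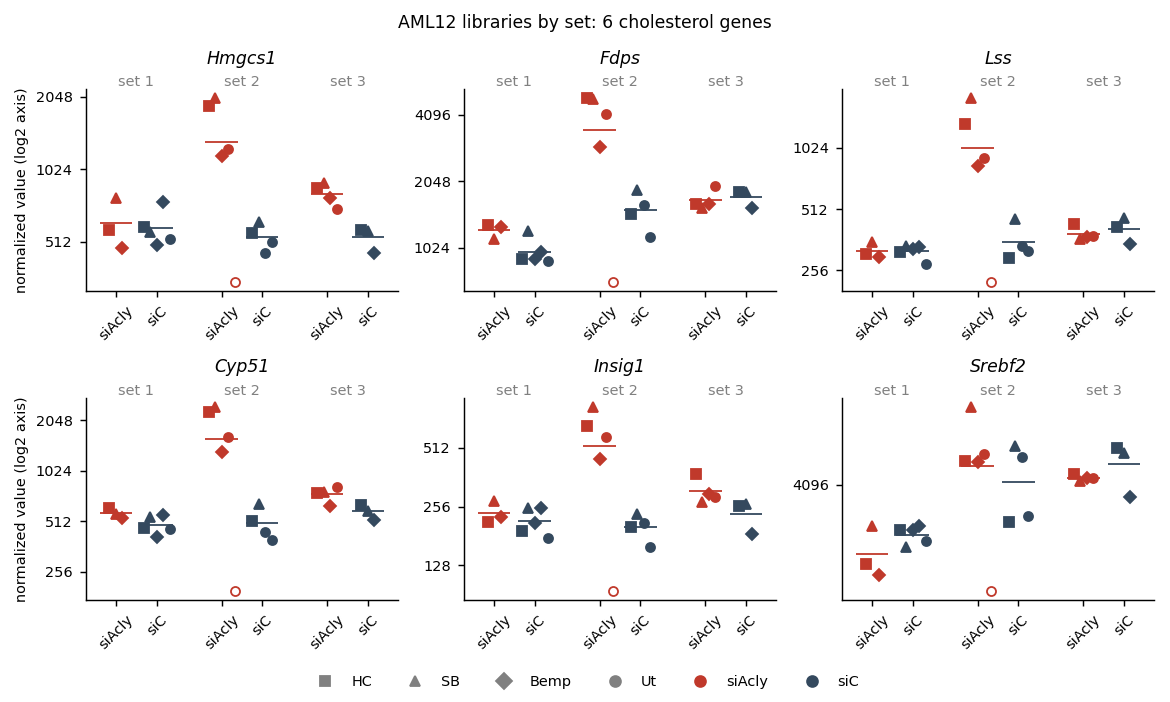
Each point is the normalized value of 1 library (log2 axis) for Hmgcs1, Fdps, Lss, Cyp51, Insig1 and Srebf2, with siAcly (red) beside siC (dark) in each of the 3 sets, the treatment by symbol and the mean of all libraries as a line. The open point is siAcly Ut 15; the other 4 siAcly libraries of set 2 lie above the siC libraries of that set for Cyp51 (1332 to 2462 against 393 to 646), but not for Srebf2 (4675 to 6430 against 3311 to 5130).

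Other values moved within set 2 too. The hepatocyte sum was 41502 to 52317 in its siAcly libraries without 15 (64377), all below the 54258 to 66423 of its siC libraries. Of the 10 cell cycle genes, all were higher in siAcly cells of set 2 without library 15 and 6 were called, with a median log2 of 0.35 (19803 to 23405 summed in those 4 siAcly libraries, against 15219 to 17649 in the siC libraries). Their part in the result was not tested. Of genes near the pathway, taken without library 15 in set 2, 18 other sterol genes (uptake, esterification and sterol-regulated turnover) had 3 called higher, 2 lower and a median of −0.02. The 7 tested LXR targets, genes switched on by oxysterols, had 1 higher, 2 lower and a median of −0.08. The 14 genes that use isoprenoids (prenyl transferases, ubiquinone and dolichol steps) had 2 higher, 1 lower and a median of −0.03, and 0 of 5 tested bile acid genes were called by limma (median −0.30). Over all 24 libraries the called genes of these lists were Aacs, a cytosolic acetoacetyl-CoA synthetase (0.65, SE 0.16, higher in siAcly cells), Abca1, the cholesterol exporter (−1.31, SE 0.36), and Icmt, a methyltransferase of prenylated proteins (−0.43, SE 0.10).

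Pairs of single libraries of the same set and treatment were also set side by side, as ratios with no test, and no pair under Bemp could be made in set 2. In set 2 the median log2 ratio of siAcly over siC for the 27 members was 0.97 under HC (library 20 over 8, 23 members higher), 0.91 under SB (17 over 5, 25 higher) and, in Ut cells, 0.67 (14 over 2, 25 higher) and 0.84 (14 over 13, 24 higher). In these 4 pairs 9 to 13 members had a log2 ratio over 1, as had 2.12% to 2.82% of all genes. With siAcly Ut 15 as numerator the median was −0.73 over library 2 and −0.61 over 13. In set 1 the median was 0.05 under HC, 0.02 under SB and 0.04 under Bemp (22 over 10), and in set 3 it was 0.02 under HC, −0.02 under SB and 0.08 under Bemp. In those 6 pairs of sets 1 and 3, 0 members had a log2 ratio over 1. The pair of 22 over the library labelled siC Bemp 11 is left out here, since Acly was at the knockdown level in both.

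Inhibitor over Ut was compared within a set in the same way. In set 2 and siAcly cells the median over library 14 was 0.16 for HC (22 of 27 higher), 0.31 for SB (23 higher) and −0.16 for Bemp (4 higher). Over siAcly Ut 15 the same medians were 1.88 for HC, 2.03 for SB and 1.46 for Bemp (23 higher in each). In set 2 and siC cells it was 0.01 and 0.18 for HC and 0.20 and 0.28 for SB, over libraries 2 and 13. In set 1, which held siC cells of all treatments, it was −0.00 for HC, 0.06 for SB and −0.03 for Bemp 10, and in siAcly cells of set 3 it was 0.01 for HC, −0.08 for SB and −0.11 for Bemp. Each of these ratios rests on 1 library against 1.

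**Figure D3:**
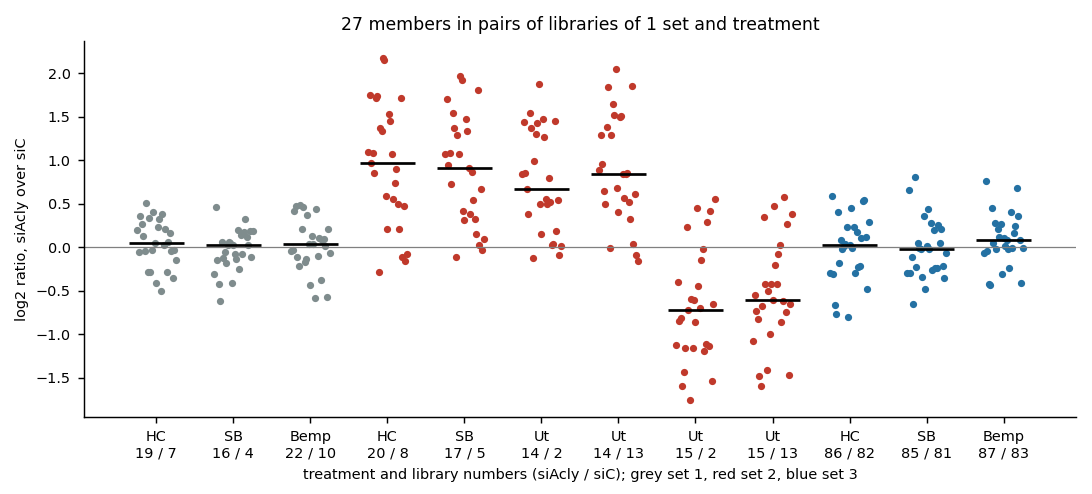
Each point is the log2 ratio of siAcly over siC for 1 of the 27 members in 1 pair of libraries of the same set and treatment, with the pairs along the axis and their medians as black bars. Pairs of set 2 (red) have medians of 0.67 to 0.97 except the 2 with siAcly Ut 15 (−0.73 and −0.61), and pairs of sets 1 (grey) and 3 (blue) have medians of −0.02 to 0.08. The library labelled siC Bemp 11 is not shown.

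In liver of mice given HC for 21 weeks, 20 of the 27 members had a higher mean than in Ut mice and 7 a lower one. The median log2 change was 0.14, against −0.01 over all tested genes. By limma 0 members were called, as were 0% of all genes, and 4 members had an unadjusted p under 0.05, all higher with HC, against 4.24% of all genes. Hmgcs1 was 774, 846, 862, 1005 and 862 in HC livers, against 687, 621, 636, 683 and 584 in Ut livers. It was the 1 member whose groups did not overlap, which held for 0.618% of all genes, with a log2 change of 0.43 (SE 0.09, unadjusted p = 0.000223, limma adjusted p = 0.514). Nsdhl, the sterol dehydrogenase of the demethylation steps, was 102, 94.6, 93.8, 145 and 127 in HC livers, against 54, 49.3, 94.9, 69.3 and 81.4 in Ut livers (log2 0.70, SE 0.19, limma adjusted p = 0.995). Of the 5 HC livers, 2 lay just under the highest Ut liver and 3 above it.

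Idi1 was 308, 240, 290, 278 and 421 in HC livers and 224, 135, 280, 183 and 199 in Ut livers (log2 0.60, SE 0.19), so that 3 HC livers stood above every Ut liver. Fdps was 174, 236, 254, 301 and 247 in HC livers and 194, 153, 205, 160 and 220 in Ut livers (0.37, SE 0.15). Sqle was 92.5, 53.4, 124, 142 and 184 in HC livers and 89.8, 40.9, 112, 71.5 and 69.3 in Ut livers, and its log2 change of 0.59 (SE 0.32) was within the spread of the mice. Fdft1 averaged 486 in HC and 405 in Ut livers, Cyp51 333 in HC and 300 in Ut livers, and Dhcr7 224 in HC and 210 in Ut livers. The regulators differed little: Srebf2 averaged 452 in HC and 418 in Ut livers, Insig1 1171 in HC and 1202 in Ut livers, and Insig2 2810 in HC and 2942 in Ut livers. Stard4 averaged 653 in HC and 600 in Ut livers, Dhdds 215 in HC and 231 in Ut livers, and Nus1 461 in HC and 488 in Ut livers. Median log2 changes by role were 0.37 for isoprenoid, 0.26 for squalene branch, 0.18 for early mevalonate and 0.17 for late sterol genes, against −0.00 for regulators and −0.08 for the dolichol pair. In whole tissue, fewer cells of a type and less RNA per cell cannot be told apart. Liver Ut 5 also held muscle transcripts, with a fast fibre sum of 914 against at most 5 in the other 9 livers. Of the lists near the pathway (other sterol genes, LXR targets, isoprenoid use, bile acid and cell cycle genes) limma called 0 genes in liver and 0 in soleus.

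In soleus, a slow muscle, 16 of the 26 members tested had a higher mean with HC (median log2 0.03). By limma 0 members and 0% of all genes were called, and 3 members had an unadjusted p under 0.05, against 5.05% of all genes. Idi1 was 103, 106, 101, 89.4 and 95.4 in HC soleus and 89.4, 67.2, 86.5, 73.2 and 84.1 in Ut soleus (log2 0.31, SE 0.11). Nsdhl was 62.1, 52.3, 47.6, 40.7 and 58.4 in HC soleus and 38.0, 46.4, 35.2, 31.1 and 40.2 in Ut soleus (0.44, SE 0.16). Both also had higher means with HC in liver. Lss ran the other way, at 35.5, 30.7, 30.9, 32.6 and 44.4 in HC soleus and 44.4, 58.5, 50.6, 55.8 and 44.4 in Ut soleus (−0.53, SE 0.15, limma adjusted p = 0.746). Its groups touched at 44.4. Groups that did not overlap were found for 0 members and for 1.1% of all genes. Stard4 was 52.3, 35.8, 42.7, 38.2 and 43.8 in HC soleus and 26.2, 28.9, 24.4, 46.4 and 44.7 in Ut soleus (0.35, SE 0.21).

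The other members of soleus stayed close to their Ut level. Hmgcs1 averaged 395 in HC and 386 in Ut soleus, Fdps 220 in HC and 210 in Ut soleus, Fdft1 980 in HC and 1096 in Ut soleus, and Cyp51 57.4 in HC and 52.7 in Ut soleus. Dhcr7 averaged 37.8 in HC and 35.9 in Ut soleus, Srebf2 164 in HC and 159 in Ut soleus, Insig1 141 in HC and 126 in Ut soleus, and Insig2 684 in HC and 665 in Ut soleus. Dhdds averaged 185 in HC and 193 in Ut soleus and Nus1 505 in HC and 478 in Ut soleus. Markers of Schwann cells, which wrap the nerve of the muscle, summed to 4224 in HC soleus 1 and 6225 in HC soleus 5, and to 1200 to 2417 in the other 8. All 5 of those markers were higher with HC. The 8 macrophage markers summed to 280 to 479 in HC soleus 2 to 5 and 91.1 in HC soleus 1, against 141 to 232 in Ut soleus, and the 5 fibroblast markers to 8683 in HC soleus 5 and 2272 to 4808 in the other 9. The part of these markers in the results was not tested.

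**Figure D4:**
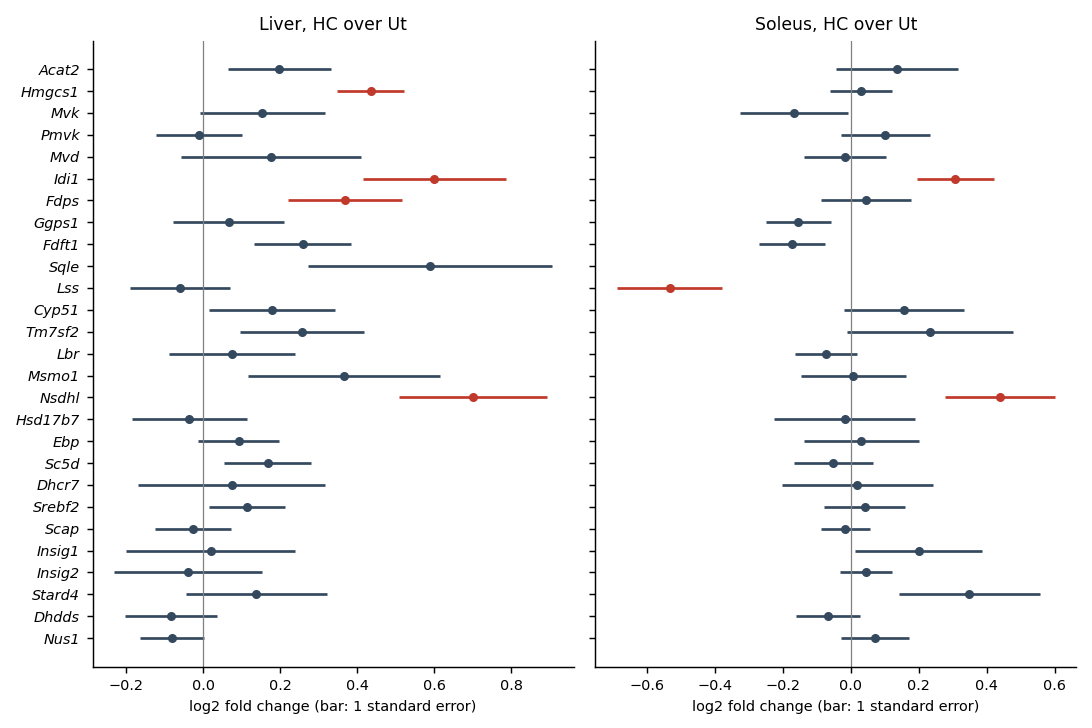
Points are log2 fold changes of HC over Ut for each member in liver (left, 27 members) and soleus (right, 26 members, Sqle not tested), with bars of 1 standard error and 5 mice per group. Red points had an unadjusted p under 0.05, namely Hmgcs1, Idi1, Fdps and Nsdhl in liver and Idi1, Nsdhl and Lss in soleus, and 0 members passed the adjusted limit.

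In gastrocnemius 2 days after cardiotoxin, enzymes of the pathway did not move as a block. In CTXHC 2DPI against C, 50.9% of all tested genes did not overlap between the groups, and of the members 7 were higher without overlap and 7 lower. Limma called 0 members and 9.93% of all genes, and 9 members had an unadjusted p under 0.05 against 35.9% of all genes, so the share of members was close to that of all genes. Sqle was 110, 109 and 52.8 in CTXHC 2DPI, 44.6, 106 and 21.6 in CTX 2DPI, and 32.9, 19.5 and 25.7 in C. Srebf2 was 1906, 1691 and 1041 in CTXHC 2DPI, 1083, 1600 and 863 in CTX 2DPI, and 706, 670 and 645 in C. All 6 libraries of day 2 were above the 3 controls for Srebf2. Cyp51 was 254, 251 and 193 in CTXHC 2DPI, 150, 224 and 150 in CTX 2DPI, and 136, 126 and 164 in C.

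Against C, the log2 changes in CTXHC 2DPI were 1.72 for Sqle (SE 0.75), 1.15 for Srebf2 (SE 0.37, limma adjusted p = 0.0593), 0.72 for Ebp, 0.71 for Cyp51 (limma adjusted p = 0.0572) and 0.62 for Msmo1. Ebp is the isomerase of the late sterol steps. Below C stood Insig2 (−0.80, SE 0.28, limma adjusted p = 0.0729), Tm7sf2 (−0.76, SE 0.30), Fdft1 (−0.74, SE 0.32) and Ggps1 (−0.50). Insig2 was 627, 654 and 940 in CTXHC 2DPI, 936, 638 and 914 in CTX 2DPI, and 1159, 1241 and 1417 in C. Fdft1 was 497, 660 and 755 in CTXHC 2DPI, 821, 593 and 1001 in CTX 2DPI, and 1050, 1062 and 1029 in C. Neighbouring enzymes of the squalene branch, Fdft1 and Sqle, thus lay on opposite sides of the controls. Hsd17b7 was 163, 250 and 284 in CTXHC 2DPI, 342, 220 and 735 in CTX 2DPI, and 396, 439 and 496 in C (−0.96 for CTXHC 2DPI, SE 0.51).

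Of the genes near the pathway in CTXHC 2DPI against C, limma called Soat2, a sterol acyltransferase (log2 3.62, SE 0.99), Por, the reductase that serves Cyp51 and Sqle (1.37, SE 0.31), and Erlin2 (0.95, SE 0.20) higher among 18 other sterol genes with a median of 0.62. Srebf1 (−1.82, SE 0.48) was the 1 called of 8 LXR targets (median 0.11). Rce1 (1.08, SE 0.28) and Dpagt1 (0.64, SE 0.15) were called higher of 14 genes of isoprenoid use (median −0.05), and Hsd3b7 (1.5, SE 0.25) higher and Cyp27a1 (−1.42, SE 0.30) lower of 3 bile acid genes. Of 10 cell cycle genes 2 were called higher (Rrm2, 2.37, SE 0.69, and Pcna, 1.00, SE 0.21), with a median of 2.45. Cell markers moved with these values. The 8 macrophage markers, all with a positive log2 change and 3 called higher, summed to 4671 to 16304 in CTXHC 2DPI, 1478 to 5534 in CTX 2DPI and 593 to 2012 in C. The 8 fast fibre markers, 1 of them called lower, summed to 1211249 to 1914997 in CTXHC 2DPI, 2196766 to 3452868 in CTX 2DPI and 3296447 to 4610644 in C. Their part in the results on the members was not tested.

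Without HC, 10 members had a log2 change above 0 against C 2 days after injury and 17 one below 0. The share of members at an unadjusted p under 0.05 was close to that of all genes. In CTX 2DPI against C limma called 0 members and 0% of all genes, and 4 members had an unadjusted p under 0.05, all lower: Ggps1 (log2 −0.92, SE 0.21), Idi1 (−0.64, SE 0.24), Insig2 (−0.63, SE 0.28) and Lbr (−0.47), where 14.9% of all genes did. The largest changes upwards were Sqle at 0.86 (SE 0.75) and Srebf2 at 0.76 (SE 0.37). Without overlap 3 members were higher (Srebf2, Ebp and Dhdds) and 7 lower, against 29.1% of all genes. Ggps1 was 194, 172 and 213 in CTX 2DPI and 359, 337 and 401 in C. The HC effect at day 2, CTXHC against CTX, had a median of 0.15 over the members, 0 members called by limma, 0% of genes called, and 2 members at an unadjusted p under 0.05 (Msmo1, 0.59, SE 0.27, and Lbr, 0.32), where 7.16% of all genes were. Msmo1 was 142, 136 and 89.6 in CTXHC 2DPI and 89.2, 95.4 and 58.8 in CTX 2DPI. Stard4 was 229, 210 and 128 in CTXHC 2DPI and 91.3, 122 and 103 in CTX 2DPI (0.80, SE 0.41). These groups did not overlap, nor did those of Idi1 and Lbr, so that 3 members were higher without overlap, against 13.5% of all genes. Sqle (0.86, SE 0.75) and Hsd17b7 (−0.75, SE 0.51) had large changes within their spread.

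At 30 days no member was called against the uninjured controls. In CTX 30DPI against C limma called 0 members and 0% of genes, and Nus1 (−0.43, SE 0.19) was the 1 member at an unadjusted p under 0.05, with 3.11% of all genes. In CTXHC 30DPI against C it was again Nus1 (−0.48, SE 0.19) with 0 members called, 0% of genes called and 2.76% at the unadjusted limit. These 2 comparisons share the C libraries. Nus1 was 1023, 600 and 974 in CTXHC 30DPI, 895, 790 and 944 in CTX 30DPI and 1274, 1141 and 1120 in C, so all 6 libraries of day 30 were below the controls. Counting Nus1, 2 members did not overlap with C in each comparison, against 8.2% of all genes for CTXHC and 10.9% for CTX. The largest changes were of Hsd17b7, which was 426, 130 and 181 in CTXHC 30DPI, 263, 149 and 453 in CTX 30DPI and 396, 439 and 496 in C (log2 −1.03 for CTXHC and −0.76 for CTX, SE 0.51 each). Its libraries of day 30 lay on both sides of the lowest control. Next were Srebf2 (0.52, SE 0.37) in CTXHC 30DPI and Sqle (−0.59, SE 0.75) and Insig1 (−0.45, SE 0.25) in CTX 30DPI. Sqle was 15.03, 52.2 and 5.35 in CTX 30DPI, and Insig1 was 292, 304 and 432 in CTX 30DPI and 358, 375 and 723 in C. For CTXHC against CTX at 30DPI the median was 0.01, led by Sqle (0.58, SE 0.75), Srebf2 (0.32) and Hsd17b7 (−0.27), with 0 members called by limma, 0 members at an unadjusted p under 0.05, and 0% and 0.755% of all genes. The HC by day term was called for 0 members and 0% of genes, with 0 members and 2.53% of genes at the unadjusted limit, and Stard4 (−0.67, SE 0.58), Msmo1 (−0.53) and Hsd17b7 (0.48) had its largest values.

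Between the days, CTXHC 30DPI against CTXHC 2DPI gave 1 called member, Cyp51, which was lower at 30DPI (128, 162 and 121, against 254, 251 and 193 in CTXHC 2DPI, log2 −0.76, SE 0.22, limma adjusted p = 0.0489). This call was lost without any single C library, and without any one of CTX 55, 57, 50 or 51 or CTXHC 58, 59, 61 or 63. Of all genes 9.74% were called, and 7 members had an unadjusted p under 0.05 against 30.4% of all genes. Sqle was 12, 46.5 and 28.4 in CTXHC 30DPI (log2 −1.73, SE 0.75, against CTXHC 2DPI), and Ebp (−0.77), Msmo1 (−0.73), Lss (−0.67) and Nus1 (−0.44) were lower too at that limit, with Insig2 higher (0.70, SE 0.28). For CTX 30DPI against CTX 2DPI limma called 0 members and 0.257% of genes, and Ggps1 (0.68, SE 0.21), Lbr (0.45) and Scap (−0.39) had an unadjusted p under 0.05, as had 21.1% of all genes. Ggps1 was 368, 328 and 241 in CTX 30DPI. Sqle (−1.45, SE 0.75) and Insig2 (0.58, SE 0.28) had larger log2 differences than Lbr and Scap but did not reach that limit.

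CTXHC 30DPI 62 stood apart from the other 2 libraries of its group. Its Srebf2 value was 1808, against 653 and 759 in libraries 61 and 63, its Insig2 712, against 1678 and 1376, its Fdft1 598, against 1503 and 1132, and its macrophage sum 5370, against 527 and 490. On each of these it resembled libraries of day 2, but not on others. Its summed LXR targets were 19585, against 4174 to 8651 at 2DPI, and its Nus1 was 600, against 924 to 1339 at 2DPI. Without it limma called 4 members in CTXHC 2DPI against C (Cyp51 and Srebf2 higher, Fdft1 and Insig2 lower), where 29.2% of all genes were called. In CTXHC 30DPI against CTXHC 2DPI it called 10, with Lss, Cyp51, Msmo1, Ebp, Srebf2 and Dhdds lower at 30DPI and Fdps, Fdft1, Sc5d and Insig2 higher, where 36.4% of all genes were called. In CTX 30DPI against CTX 2DPI Ggps1 and Lbr were then called higher, where 8.84% of all genes were called. CTXHC 2DPI 60, the library of its group with the lowest Srebf2, Sqle and macrophage values, changed the first comparison too, with 4 members called without it, where 15.3% of all genes were called. CTX 2DPI 57, with Srebf2 at 863 and Sqle at 21.6, and CTX 30DPI 51, at 1041 and 52.2, also stood nearer to the other day, and without these 2 and library 62 the calls were 5 in CTXHC 2DPI against C (34.2% of all genes), 11 in CTXHC 30DPI against CTXHC 2DPI (39.6%), 3 in CTX 30DPI against CTX 2DPI (11.4%) and 1 in CTX 2DPI against C (3.87%). Libraries 62, 60, 57 and 51 were picked in part by values of members. More calls of members without them were therefore to be expected, and these counts are no separate support for a change of the members.

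**Figure D5:**
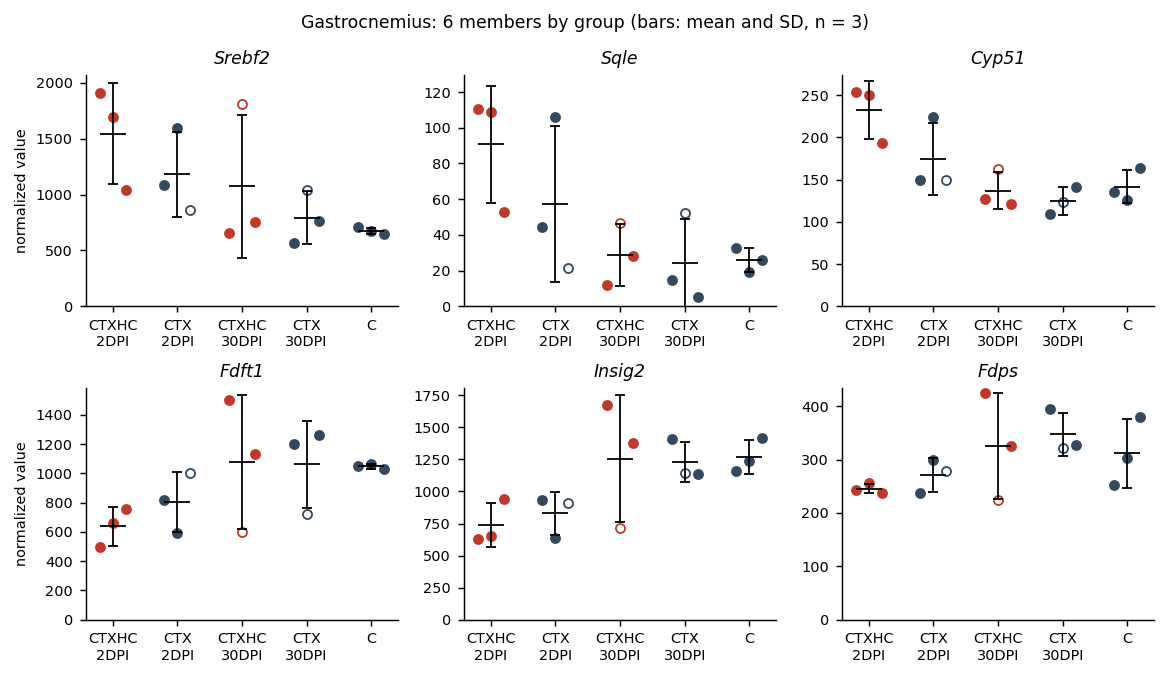
Points are normalized values of Srebf2, Sqle, Cyp51, Fdft1, Insig2 and Fdps in each gastrocnemius library by group, with HC groups in red and a black bar at each group mean with its SD (n = 3). Open points are CTXHC 30DPI 62, CTX 2DPI 57 and CTX 30DPI 51; Srebf2 lies between 863 and 1906 at 2DPI and between 645 and 706 in C.

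Levels of different members were set side by side per length of exon, as the value per base of exon, divided by the sum of these over all genes of a library and given in parts per M, with the median over the libraries of a table. The tables were normalized separately and their kits differed, so the order within a table is given and no test was made between tables. The length joins all annotated exons of a gene, so the order depends on the annotation. Lss had the longest of the members, at 10787 bases. In AML12 cells the highest were Ebp (423 parts per M), Srebf2 (128), Acat2 (120) and Fdps (90.1), and the lowest Ggps1 (7.63) and Lss (8.21). In liver they were Insig2 (231), Ebp (192), Insig1 (116) and Sc5d (100), and the lowest Lbr (3.38) and Sqle (4.70). Sqle was the lowest of the 27 in both muscles (0.311 in soleus and 1.09 in gastrocnemius). Insig2, the regulator on top in liver, was thus the most abundant of the 27 there, while Srebf2 was second in AML12 cells and 17th of 27 in liver.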

How the data were processed

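RNA-seq of AML12 cells, liver, soleus and gastrocnemius was analysed from 4 tables of gene values. Before deposit, the authors ran the FASTQ toolkit, aligned reads to UCSC mm10 (an application built on STAR) and divided gene counts by DESeq2 size factors, so the deposited signal values are scaled counts, comparable only within a table. By the labels, AML12 and gastrocnemius libraries were made from mRNA by ligation, and liver and soleus libraries after rRNA depletion with a directional kit. Whole reads could not be recovered from the values, so no count test was run. Groups were compared with limma 3.58.1 in R 4.3.3 (moderated by a trend with the mean) on log2(value + 1), which understates changes of low genes. A gene was tested where its value reached 10 in at least the number of libraries of the smallest group. Fits held all groups of a table, p-values had the Benjamini-Hochberg adjustment over all tested genes, and the test was tried on simulated data.

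For depth, the sum of a library was divided by its commonest value from 0 to 2, on the assumption that this was the worth of 1 read. No 2 libraries of a table held the same values. Groups came from the labels, also for libraries in doubt. The members, their roles and the lists beside them were chosen with earlier results of these data known. Named members were those called, the 3 with the largest change where none was, and at least 1 member of each role. Some genes of the pathway are not reported here. Exon lengths and positions came from GENCODE (GRCm38), for 98.1% of 24972 genes, and promoters from RefSeq. Replicate numbers of liver and soleus did not pair the mice (same-number correlations of 0.02 to 0.08 in liver and −0.11 to 0.40 in soleus) and were not used as a block. The closing section gives other pseudocounts, filters, normalizations, covariates and left-out libraries.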

Additional observations from a re-analysis of the deposited data

How the results depend on the processing

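Sets of AML12 libraries, the set covariate and the joint omission of libraries were chosen after the data were seen. A pseudocount of 0.5 or 5 and recomputed medians of ratios kept every count of called members within 1.5 times its value, and liver, soleus and the single-treatment AML12 comparisons had 0 members called under every alternative run, the replicate block (0 in liver, 0 in soleus) included. Depth was an estimate, so no counting limits were set on single values. For the siRNA effect over all treatments, 1 member was called, 2 with the series of library numbers and 3 with the set as covariate, 0 without libraries 11, 13 and 15 together, and 0 to 4 with single libraries left out. For the siRNA effect in sets, leaving out 11, 13 and 15 together gave 1 (set 1), 19 (set 2), 6 (set 3), 14 (set 2 minus set 1) and 15 (set 2 minus set 3), no filter gave 5 in set 2 and 0 for set 2 minus set 1, and single libraries left out gave 0 to 2 (set 1), 4 to 20 (set 2), 0 to 6 (set 3), 0 to 16 (set 2 minus set 1) and 0 to 17 (set 2 minus set 3). For CTXHC 2DPI against C the count was 1 with quantile normalization, 6 with only these groups fitted, 4 without 57 and 62 (31.2% of all genes called), 5 without 51, 57 and 62 (34.2%), and 0 to 4 with single libraries left out. For CTXHC 30DPI against CTXHC 2DPI it was 0 with no filter, with quantile normalization and with only these groups fitted, 11 under either joint omission (37.3% of all genes called without 57 and 62, 39.6% without 51 as well), and 0 to 10 with single libraries left out. Without 51, 57 and 62 it was 1 for CTX 2DPI against C and 3 for CTX 30DPI against CTX 2DPI, where single libraries left out gave 0 to 2. Counts of called members whose share of all genes is given neither here nor above came from refits where that share was not kept. Those counts cannot be read as a gain or loss particular to the members.

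Signs turned for members that were not called, and for medians over the members, of which the report names those in AML12 cells with the library that turned them. In gastrocnemius the median also passed 0 with single libraries left out in CTXHC 2DPI against C (−0.05 to 0.14), CTX 30DPI against C (−0.11 to 0.02) and CTXHC against CTX at 30DPI (−0.04 to 0.07). With the set as covariate, siC Bemp against siC Ut gave 0.10 for Mvd and 0.29 for Tm7sf2. Without 11, 13 and 15, siAcly HC against siAcly Ut gave −0.18 for Cyp51 and −0.025 for Stard4, siAcly Bemp against siAcly Ut gave −0.19 for Idi1, −0.25 for Stard4 and −0.46 for Sqle, the siRNA by HC term was −0.029 for Mvd and −0.051 for Stard4, and the siRNA by Bemp term was −0.065 for Mvd. Without 57 and 62, CTXHC against CTX at 30DPI gave −0.13 for Srebf2 and 0.091 for Hsd17b7, and without 51, 57 and 62 the HC by day term was −0.036 for Hsd17b7. With single libraries left out, Cyp51 ran from −0.10 to 1.43 in siAcly Ut against siC Ut and from −0.18 to 1.34 in siAcly HC against siAcly Ut, and Insig2 from −0.45 to 0.017 in siC HC against siC Ut. Stard4 ran from −0.025 to 1.02 in siAcly HC and from −0.25 to 0.79 in siAcly Bemp, and Idi1 from −0.19 to 1.30 and Sqle from −0.46 to 1.07 in siAcly Bemp, against siAcly Ut. The siRNA by HC term ran from −0.068 to 1.04 for Mvd and from −0.13 to 0.91 for Stard4, and the siRNA by Bemp term from −0.27 to 1.22 for Idi1. In gastrocnemius, Sqle ran from −1.39 to 0.14 in CTX 30DPI against C. In CTXHC against CTX at 30DPI it ran from −0.15 to 1.38, Hsd17b7 from −0.76 to 0.12 and Srebf2 from −0.13 to 0.60. The HC by day term of Hsd17b7 ran from −0.015 to 0.87. The cause of these changes was not tested.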
